A study of Mus musculus with 5 samples.

Results

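The genes of cholesterol and fatty acid synthesis were examined in leukaemia cells and normal myeloid cells of the mouse. They were taken by name from a table of 34240 features: 17 enzymes of sterol synthesis, 9 genes that regulate, move or store sterols, and 14 genes that make, elongate, desaturate or activate fatty acids. Of these 40 names, 39 had a row. The level of Hmgcs1, which encodes the enzyme that makes HMG-CoA, was not analysed here, and only its promoter was searched. The first group was 2 libraries of acute myeloid leukaemia (AML) cells sorted as Mac+Gr1+B220+; the tissue given for them is bone marrow and spleen. The second was 3 libraries of normal Gr1+Mac1+ myeloid cells from bone marrow. All mice were BALB/c and aged 10 to 12 months. The leukaemia had been induced by CNTRL-FGFR1, a fusion of a centrosomal protein with the receptor tyrosine kinase FGFR1; the labels give neither the way in which the fusion was delivered nor any treatment of the normal mice. Spleen and B220 were part of the AML group alone, so tissue and sort cannot be told apart from leukaemia. Whether each library is from its own animal is not stated, so the p-values reflect only the spread between these libraries, which may be technical.

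Cells make cholesterol from acetyl-CoA through mevalonate, isoprenoid diphosphates, squalene and lanosterol. When sterols in the endoplasmic reticulum run low, SCAP carries the SREBP transcription factors to the Golgi for cleavage, and INSIG proteins hold this complex back when sterols are plentiful. SREBP-2, the product of Srebf2, acts mainly on sterol synthesis and uptake, and SREBP-1, the product of Srebf1, mainly on fatty acid synthesis. Isoprenoid diphosphates also feed protein prenylation, and macrophages store excess cholesterol as esters.

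Levels are given as RPKM (read numbers divided by exon length and by the mapped reads of the library), which allows levels of different genes to be compared. The deposited table holds no counts, so the number of reads behind each value is not given; RPKM totals ran from 524000 to 638584 in the AML libraries and from 472234 to 615921 in the normal libraries. Across genes, the AML libraries correlated with each other at 0.964 (Pearson, log2(RPKM + 1)). Normal library 3 stood apart from its group, with correlations of 0.924 and 0.944 to normal libraries 1 and 2, which correlated with each other at 0.988. Summed erythroid marker levels were 172 RPKM in normal library 3, against 2225 and 1461 RPKM in normal libraries 1 and 2. The groups differed in markers of maturation: all 8 tested markers of immature granulocytes were higher in AML cells, with summed levels of 11680 and 12560 RPKM in AML libraries against 604 to 792 RPKM in normal libraries, and 8 of 11 markers of mature neutrophils were lower. Of 15 monocyte and macrophage markers, 11 were lower in AML cells, with summed levels of 57.9 and 66.1 RPKM in AML libraries against 646 to 1071 RPKM in normal libraries, and none was at 0 in any library. The part that these differences in cell type and stage play in the values below was not tested. In sorted bulk samples, fewer cells of a type and less RNA per cell cannot be told apart.

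Promoters are shown first for the called genes with the largest log2 fold changes, on the log2(RPKM + 1) scale, among those with a RefSeq promoter: Fasn, which rose in AML cells, and Idi1 and Soat1, which fell. CCAAT boxes, which NF-Y binds beside SREBP at sterol-responsive genes, stood in all 3. Each sequence runs from 250 bases before to 50 bases after the RefSeq gene start (GRCm38.p6; the expression files use mm9), 5′ to 3′ along the gene, with CCAAT or its reverse complement ATTGG in capitals. The Fasn window lies at chr11:120824498-120824797 on the minus strand, the Idi1 window at chr13:8885356-8885655 on the plus strand and the Soat1 window at chr1:156474279-156474578 on the minus strand.
Fasn: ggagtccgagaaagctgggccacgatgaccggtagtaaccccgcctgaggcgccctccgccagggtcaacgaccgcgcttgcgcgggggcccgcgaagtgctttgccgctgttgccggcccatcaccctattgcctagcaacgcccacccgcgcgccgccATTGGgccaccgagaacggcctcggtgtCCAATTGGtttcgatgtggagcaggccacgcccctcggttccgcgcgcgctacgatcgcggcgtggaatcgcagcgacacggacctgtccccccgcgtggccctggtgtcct
Idi1: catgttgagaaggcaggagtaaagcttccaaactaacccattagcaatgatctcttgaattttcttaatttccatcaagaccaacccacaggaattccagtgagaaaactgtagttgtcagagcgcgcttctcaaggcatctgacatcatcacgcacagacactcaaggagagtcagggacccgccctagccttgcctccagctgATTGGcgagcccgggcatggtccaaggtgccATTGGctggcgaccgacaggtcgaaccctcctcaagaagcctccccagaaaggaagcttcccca
Soat1: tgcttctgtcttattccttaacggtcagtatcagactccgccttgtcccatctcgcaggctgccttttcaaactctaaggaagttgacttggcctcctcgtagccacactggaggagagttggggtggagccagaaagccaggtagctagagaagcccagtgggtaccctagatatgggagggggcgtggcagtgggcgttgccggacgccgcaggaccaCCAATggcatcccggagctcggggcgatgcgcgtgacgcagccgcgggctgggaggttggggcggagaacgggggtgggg
The Fasn window holds 3 matches, and the pair nearest to the gene start overlaps on opposite strands.

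RefSeq promoters were matched for 32 of the 40 names; Abcg1, Fads1, Fdft1, Fdps, Scd1, Scd2, Sqle and Stard4 are named only. CCAAT on either strand was found in 13 of 14 sterol synthesis genes, 5 of 7 sterol regulators and 7 of 11 fatty acid genes, and in 41.1% of all 27025 genes with a promoter. GGGCGG, the core of SP1 sites, was found in 13 of 14, 7 of 7 and 6 of 11 genes of these groups, and in 38.2% of all genes. The sterol regulatory element searched as TCACNCCAC was found in Hmgcs1 and Acsl1 alone among the members, and in 1.44% of all genes. These matches describe letters in a window and not binding, and other forms of the element were not searched.

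Of the 36 genes that reached 1 RPKM in at least 2 libraries, 5 rose and 4 fell in AML cells (limma on log2(RPKM + 1), Benjamini-Hochberg adjusted p under 0.05 over 10166 genes). Fdps, Scap, Fasn, Fads1 and Acsl3 rose, and Idi1, Hsd17b7, Soat1 and Elovl6 fell. Idi1 and Elovl6 entered the test through the normal libraries alone, being under 1 RPKM in both AML libraries. Abca1, Scd1 and Fads2 were not tested. Across all tested genes 19.3% rose and 11.8% fell, against 13.9% and 11.1% of these 36, so the share that changed was near the background in both directions. The median log2 fold change (AML minus normal) was 0.09 over the 36 genes and 0.12 over all tested genes. AML libraries lay above all normal libraries for 12 of the 36 genes and below them for 11, against 34.8% and 22.1% of all tested genes. Without normal library 3, 8 (22.2%) rose and 7 (19.4%) fell, against 27.3% and 21.2% of all genes tested there. The counts were no larger than with all libraries when any other library was left out: 0 rose and 4 fell without AML library 1 (7.08% and 6.18% of all genes; 6 rose and 4 fell at an unadjusted p under 0.05, limma), and 3 rose and 1 fell without AML library 2 (3.33% and 3.55%). They were 4 and 2 where normal library 1 was left out (11.4% and 8.01%) and 2 and 2 where normal library 2 was (9.61% and 6.44%).

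**Figure D1:**
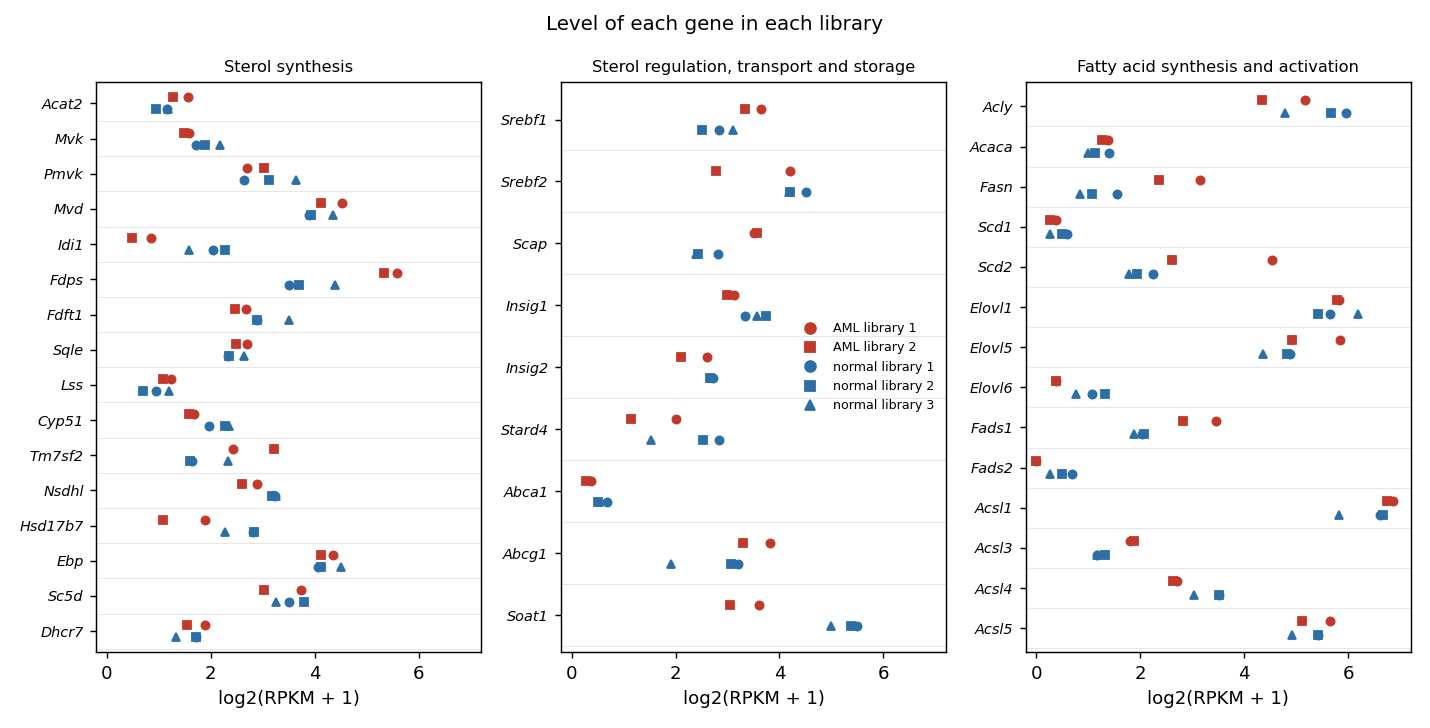
Level of each gene in each library as log2(RPKM + 1), with AML libraries in red above normal libraries in blue for each gene. Fdps, Scap, Fasn and Fads1 show both AML libraries to the right of all normal libraries, and Idi1, Hsd17b7 and Soat1 show them to the left.

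Of 16 tested enzymes of sterol synthesis, 1 rose (6.25%, against 19.3% of all tested genes), 2 fell (12.5%, against 11.8%) and 13 did not pass the test. The median log2 fold change of the 16 was -0.07, with 8 above and 8 below 0. Idi1 and Fdps, at neighbouring steps of the isoprenoid branch, were called in opposite directions.

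The early enzymes did not pass the test. Acat2, the cytosolic thiolase that condenses acetyl-CoA, stood at 1.96 and 1.4 RPKM in AML libraries and at 1.24, 0.92 and 1.27 RPKM in normal libraries, with both AML values above. Mvk, mevalonate kinase, was at 2 and 1.8 RPKM in AML libraries, below its 2.3, 2.7 and 3.5 RPKM in normal libraries. Pmvk and Mvd, which add the next phosphate and make isopentenyl diphosphate, overlapped between the groups. None of these 4 genes reached the threshold (limma, Benjamini-Hochberg adjusted p from 0.21 to 0.55).

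Idi1, the isomerase that turns isopentenyl diphosphate into dimethylallyl diphosphate (chromosome 13, 8884852 to 8891641, plus strand, mm9, ENSMUSG00000058258), was at 0.8 and 0.4 RPKM in AML libraries and at 3.1, 3.8 and 2 RPKM in normal libraries. Both AML values were below every normal value. The log2 fold change was -1.29 (SE 0.26, 95% interval -1.91 to -0.68, limma, Benjamini-Hochberg adjusted p = 0.012), and mean RPKM was 4.94-fold lower in AML cells. With its AML values under the filter, Idi1 was tested because of its normal levels; with no filter, the adjusted p was 0.03. Fdps, the synthase that joins these products into farnesyl diphosphate (chromosome 3, 88897514 to 88905881, minus strand, ENSMUSG00000059743), was at 46.88 and 39.3 RPKM in AML libraries and at 10.36, 11.9 and 20.02 RPKM in normal libraries. Its lowest AML value was above its highest normal value, which came from normal library 3. Fdps averaged 43.1 ± 5.36 RPKM in AML cells (SD, n = 2) and 14.1 ± 5.19 RPKM in normal cells (SD, n = 3), 3.06-fold higher, with a log2 fold change of 1.59 (SE 0.31, limma, Benjamini-Hochberg adjusted p = 0.011). The call of Fdps was lost without either AML library (limma adjusted p = 0.072 without library 1 and 0.071 without library 2), and that of Idi1 without AML library 2 (0.11).

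Farnesyl diphosphate goes on to sterols through squalene synthase, the product of Fdft1, or to protein prenylation. Fdft1 was at 5.4 and 4.5 RPKM in AML libraries and at 6.4, 6.4 and 10.3 RPKM in normal libraries, which did not overlap but did not pass the test (log2 fold change -0.52, SE 0.27, limma, Benjamini-Hochberg adjusted p = 0.18). Exons of Ctsb, cathepsin B, overlap those of Fdft1 on the opposite strand. Within each library, the ratio of Fdps to Fdft1 was 8.68 and 8.73 in AML libraries, against 1.62, 1.86 and 1.94 in normal libraries. This pair was chosen after its values were seen and was not tested. Ggps1, which makes geranylgeranyl diphosphate and is outside the 40 names, was at 4.4 and 4.5 RPKM in AML libraries and at 5.4, 7.2 and 4.5 RPKM in normal libraries (limma adjusted p = 0.41).

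**Figure D2:**
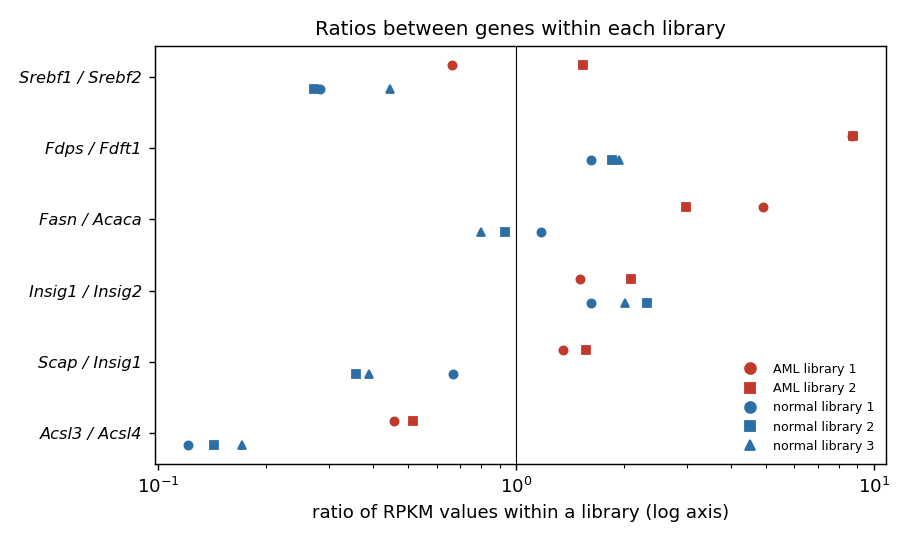
Ratio of RPKM values of 2 genes within each library on a log axis, with AML libraries in red above normal libraries in blue. The Fdps to Fdft1 ratio lies near 8.7 in both AML libraries and under 2 in every normal library, while Insig1 to Insig2 overlaps between the groups.

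From squalene to cholesterol, most enzymes did not pass the test. Sqle, squalene epoxidase, stood at 5.5 and 4.6 RPKM in AML libraries and at 4, 4.1 and 5.2 RPKM in normal libraries, with a 95% interval of its log2 fold change from -0.37 to 0.69. Lss, which closes the ring to lanosterol, overlapped between the groups at 0.61 to 1.35 RPKM over all libraries. Cyp51, lanosterol demethylase, was at 2.2 and 2 RPKM in AML libraries and at 2.9, 3.8 and 4.1 RPKM in normal libraries. Cyp51 was lower in both AML libraries without passing the test (log2 fold change -0.56, SE 0.22, limma, Benjamini-Hochberg adjusted p = 0.089). Tm7sf2 and Nsdhl, which act on the demethylated sterol, lay on opposite sides. Tm7sf2, a sterol reductase, was at 4.36 and 8.25 RPKM in AML libraries and at 2.11, 2.01 and 4.06 RPKM in normal libraries, with normal library 3 close to AML library 1, and 1110014N23Rik overlaps its exons on the same strand. Its adjusted p was 0.073 with all libraries and 0.01 without normal library 3 (limma, Benjamini-Hochberg). Nsdhl, a dehydrogenase of the same stretch, was at 6.4 and 5.1 RPKM in AML libraries and at 8.4, 8.1 and 8.6 RPKM in normal libraries (limma adjusted p = 0.13).

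Hsd17b7, the keto-reductase of sterol demethylation (chromosome 1, 171879666 to 171899372, minus strand, mm9, ENSMUSG00000026675), fell in AML cells. It was at 2.7 and 1.1 RPKM in AML libraries and at 6, 6.1 and 3.8 RPKM in normal libraries, with no overlap. The log2 fold change was -1.15 (SE 0.32, limma, Benjamini-Hochberg adjusted p = 0.034), a 2.79-fold lower mean RPKM. The call was lost without AML library 2, normal library 1 or normal library 2 (limma adjusted p up to 0.23, with a log2 fold change of -0.75 without AML library 2) and without a filter on low values (0.072). Ebp, Sc5d and Dhcr7, the last isomerase, desaturase and reductase, overlapped between the groups, with log2 fold changes of 0.003, -0.14 and 0.12. The 95% intervals were -0.57 to 0.57 for Ebp, -0.85 to 0.56 for Sc5d and -0.42 to 0.67 for Dhcr7.

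Msmo1, an enzyme outside the 40 names that is listed as Sc4mol and is the methyl oxidase ahead of Nsdhl, fell to 11.8 and 11.7 RPKM in AML libraries, against 21.8, 25.2 and 36.2 RPKM in normal libraries (limma, Benjamini-Hochberg adjusted p = 0.02).

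**Figure D3:**
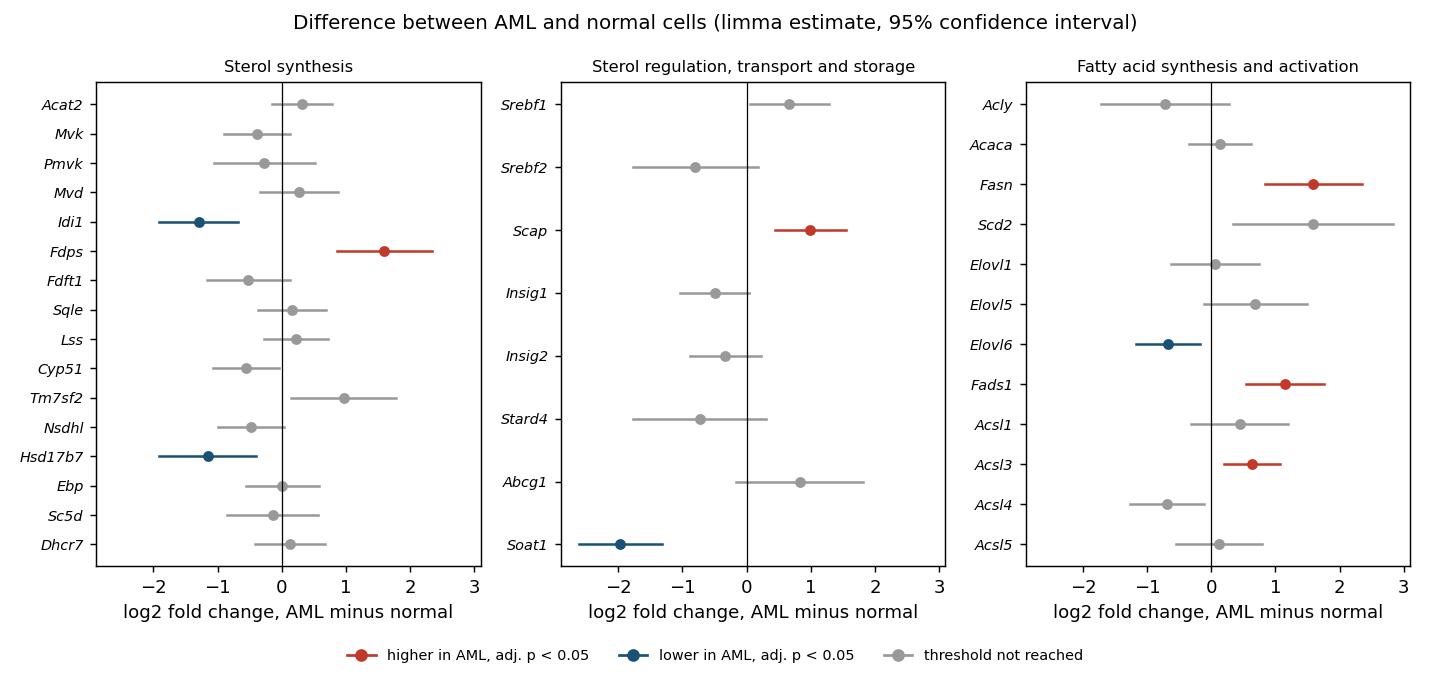
Log2 fold change of AML minus normal cells with its 95% confidence interval for the 36 tested genes, from limma on log2(RPKM + 1). Red marks the 5 genes that rose, dark blue the 4 that fell and grey those that did not reach the threshold.

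Among the regulators Scap rose, and neither SREBP gene passed the test. Scap, the sterol sensor that escorts SREBP (chromosome 9, 110235792 to 110287450, plus strand, mm9, ENSMUSG00000032485), was at 10.44 and 10.86 RPKM in AML libraries and at 6.09, 4.4 and 4.23 RPKM in normal libraries. The AML values were close to each other and above every normal value. Scap averaged 10.7 ± 0.297 RPKM in AML cells (SD, n = 2) and 4.91 ± 1.03 RPKM in normal cells (SD, n = 3), with a log2 fold change of 0.99 (SE 0.24, limma, Benjamini-Hochberg adjusted p = 0.02). The call was lost without either AML library or normal library 2 (limma adjusted p up to 0.12), with log2 fold changes of 0.91 to 1.13 over the fits without 1 library. Exons of 5830462I19Rik overlap those of Scap on the opposite strand, and reads of the pair cannot be told apart without strand.

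Srebf1 was at 11.56 and 9.07 RPKM in AML libraries and at 6.17, 4.73 and 7.63 RPKM in normal libraries. Both AML values were above every normal value, but the log2 fold change of 0.67 (SE 0.26) missed the threshold (limma, Benjamini-Hochberg adjusted p = 0.094) except without normal library 3 (0.03). Srebf2 was at 17.4 and 5.9 RPKM in AML libraries and at 21.8, 17.3 and 17.1 RPKM in normal libraries. AML library 1 was within the normal range and AML library 2 was well under it (log2 fold change -0.80, SE 0.41, limma adjusted p = 0.18; -1.51 and 0.037 without AML library 1). Srebf1 made up 39.9% and 60.6% of the summed level of both genes in AML libraries, against 22.1%, 21.5% and 30.9% in normal libraries. Exons of Rai1 overlap those of Srebf1 on the opposite strand. A value per gene does not separate the SREBP-1a and SREBP-1c transcripts.

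The INSIG genes were lower in both AML libraries, but neither passed the test. Insig1, itself an SREBP target, was at 7.7 and 6.9 RPKM in AML libraries and at 9.1, 12.3 and 10.9 RPKM in normal libraries (log2 fold change -0.50, SE 0.23, limma, Benjamini-Hochberg adjusted p = 0.14). Insig2 was at 5.1 and 3.3 RPKM in AML libraries and at 5.6, 5.3 and 5.4 RPKM in normal libraries (limma adjusted p = 0.32). The ratio of Scap to Insig1, a pair also chosen after its values were seen, was 1.36 and 1.57 in AML libraries, against 0.669, 0.358 and 0.388 in normal libraries. The ratio of Insig1 to Insig2 overlapped, at 1.51 and 2.09 in AML libraries and at 1.63, 2.32 and 2.02 in normal libraries. Mbtps1, the Golgi protease that first cuts SREBP, was at 13.35 and 12.2 RPKM in AML libraries and at 11.58, 10.18 and 8.49 RPKM in normal libraries (limma adjusted p = 0.31). Mbtps2, the protease of the next cut, was at 2 and 1.2 RPKM in AML libraries and at 4, 4 and 1.8 RPKM in normal libraries (limma adjusted p = 0.15).

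Soat1, the enzyme that esterifies cholesterol for storage (chromosome 1, 158358239 to 158404459, minus strand, mm9, ENSMUSG00000026600), gave the largest log2 fold change among the 36 genes on the log2(RPKM + 1) scale. By mean RPKM, Idi1, Fasn and Scd2 differed by larger folds (4.94, 4.67 and 4.53), and with a pseudocount of 0.1 so did Fasn and Idi1 on the log2 scale (2.15 and -2.15, against -2.07 for Soat1). It was at 11.1 and 7.3 RPKM in AML libraries and at 44.2, 40.5 and 31 RPKM in normal libraries, and the groups stood far apart. Soat1 averaged 9.2 ± 2.69 RPKM in AML cells (SD, n = 2) and 38.6 ± 6.81 RPKM in normal cells (SD, n = 3), 4.19-fold lower, with a log2 fold change of -1.97 (SE 0.27, limma, Benjamini-Hochberg adjusted p = 0.0032). It passed in all 12 alternative fits (limma adjusted p up to 0.043). Soat1 is abundant in macrophages, whose markers were also lower in AML cells, as given above; their part in this fall was not tested.

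Stard4 and Abcg1 varied within the normal group. Stard4, a cytosolic sterol carrier, was at 3 and 1.2 RPKM in AML libraries and at 6.1, 4.8 and 1.9 RPKM in normal libraries, with normal library 3 between the AML values (limma, Benjamini-Hochberg adjusted p = 0.24, and 0.019 without normal library 3). Abcg1, a cholesterol exporter, was at 13.01 and 8.87 RPKM in AML libraries and at 8.22, 7.36 and 2.79 RPKM in normal libraries. Abcg1 was higher in both AML libraries without passing the test (log2 fold change 0.83, SE 0.42, limma adjusted p = 0.17). Abca1, the exporter that loads apolipoprotein A1, stayed under the filter, at 0.3 and 0.22 RPKM in AML libraries and at 0.61, 0.43 and 0.45 RPKM in normal libraries.

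Of 16 further sterol genes taken as a list, 13 were tested, of which 5 fell: Apoe, Lipa, Npc1, Npc2 and Msmo1. That is 38.5% of the list, against 11.8% of all tested genes. By limma 0 rose, against 19.3% of all tested genes; at an unadjusted p under 0.05, 6 were lower and 1 was higher. Of the list, Apoe, which encodes apolipoprotein E, had the largest fall. Its levels were 25.5 and 31.4 RPKM in AML libraries, against 126, 97.2 and 272 RPKM in normal libraries (log2 fold change -2.36, SE 0.44, limma adjusted p = 0.0089).

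Lipa, the lysosomal lipase that frees cholesterol from esters, was at 6.6 and 3.6 RPKM in AML libraries and at 31.2, 25.7 and 12.4 RPKM in normal libraries (log2 fold change -1.93, SE 0.42, limma adjusted p = 0.015). Npc1 and Npc2, which move cholesterol out of lysosomes, also fell, as did Msmo1. Npc2 was at 21 and 12.4 RPKM in AML libraries and at 60.8, 66.3 and 39.4 RPKM in normal libraries, and Npc1 at 3 and 2.7 RPKM in AML libraries and at 7.5, 5.5 and 5.6 RPKM in normal libraries. Several of these genes are abundant in macrophages, and their normal values moved with the markers of those cells only in part: Lipa was lowest in normal library 3, where summed monocyte and macrophage markers were also lowest, while Apoe was highest there. The share of the cell types in these differences was not tested. By limma, the list gave 0 higher genes in each fit without 1 library except that without normal library 3, which gave 1. It gave 2 lower genes without AML library 1 (6.18% of all genes), 0 without AML library 2 (3.55%), 4 without normal library 1 (8.01%), 2 without normal library 2 (6.44%) and 7 without normal library 3 (21.2%), so none of the 5 calls held without AML library 2.

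**Figure D4:**
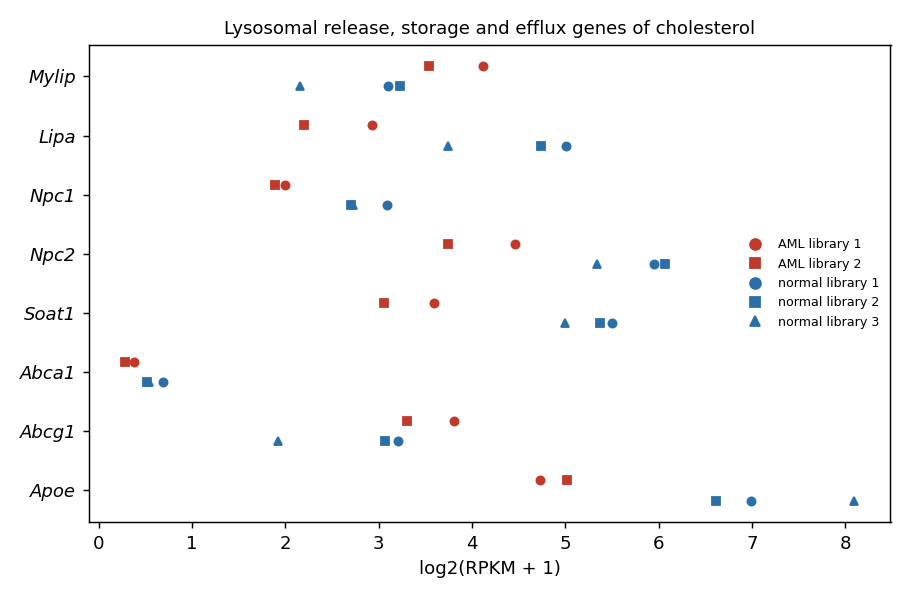
Levels of Mylip and of genes of lysosomal cholesterol release, storage and efflux in each library as log2(RPKM + 1). AML libraries are in red above normal libraries in blue. Lipa, Npc1, Npc2, Soat1 and Apoe lie to the left in both AML libraries, as does Abca1, which was under the filter. Mylip and Abcg1 lie to the right without passing the test.

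Of 12 tested fatty acid genes, 3 rose (25%, against 19.3% of all tested genes), 1 fell (8.33%, against 11.8%) and 8 did not pass, so the shares were near the background. Their median log2 fold change was 0.29, against 0.12 over all tested genes. Without AML library 1 it was 0.15, against -0.02 over all genes tested there. Over the fits without 1 library it ran from 0.15 to 0.59. Within the path, the synthase rose while the enzymes that supply its substrates did not pass the test. Acly, which makes cytosolic acetyl-CoA from citrate, was at 35 and 19.3 RPKM in AML libraries and at 61.6, 50 and 26.7 RPKM in normal libraries. Normal library 3 was between the AML values (log2 fold change -0.72, SE 0.42, limma, Benjamini-Hochberg adjusted p = 0.22, and 0.023 without normal library 3). Acaca, acetyl-CoA carboxylase, was at 1.6 and 1.39 RPKM in AML libraries and at 1.65, 1.19 and 1 RPKM in normal libraries, with a 95% interval of its log2 fold change from -0.34 to 0.62.

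Fasn, fatty acid synthase (chromosome 11, 120667254 to 120685492, minus strand, mm9, ENSMUSG00000025153), was at 7.85 and 4.14 RPKM in AML libraries and at 1.94, 1.11 and 0.8 RPKM in normal libraries. Both AML libraries were above every normal library, and AML library 1 was the higher of the pair. Fasn averaged 6 ± 2.62 RPKM in AML cells (SD, n = 2) and 1.28 ± 0.589 RPKM in normal cells (SD, n = 3), 4.67-fold higher, with a log2 fold change of 1.59 (SE 0.32, limma, Benjamini-Hochberg adjusted p = 0.012). The call was lost without AML library 1 (limma adjusted p = 0.077). The ratio of Fasn to Acaca was 4.91 and 2.98 in AML libraries, against 1.18, 0.933 and 0.8 in normal libraries. This ratio was not tested and restates the difference in Fasn, as Acaca overlapped between the groups.

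Of the desaturases, Fads1 alone passed the test. Scd2, a stearoyl-CoA desaturase that makes monounsaturated fatty acids, was at 22.04 and 5.08 RPKM in AML libraries and at 3.72, 2.81 and 2.45 RPKM in normal libraries. AML library 1 alone was far above the rest, and the log2 fold change of 1.58 (SE 0.52) missed the threshold (limma, Benjamini-Hochberg adjusted p = 0.06; 2.54 and 0.015 without AML library 2, and 0.049 without normal library 3). Scd1, the main isoform of liver and fat, was under the filter at 0.2 to 0.5 RPKM over all libraries. Scd1 and Scd2 are similar neighbours on chromosome 19, so reads can be split between them, and AC123853.2 overlaps exons of Scd2 on the same strand. Fads1, the delta-5 desaturase of polyunsaturated fatty acids (chromosome 19, 10257378 to 10271360, plus strand, mm9, ENSMUSG00000010663), was at 10 and 6.08 RPKM in AML libraries and at 3.11, 3.22 and 2.67 RPKM in normal libraries. Both AML values were above the narrow normal range (log2 fold change 1.14, SE 0.26, limma adjusted p = 0.017), and the call was lost without AML library 1 (0.091) or normal library 2 (0.06). Its neighbour Fads2, the delta-6 desaturase, was listed at 0 in both AML libraries and at 0.6, 0.4 and 0.2 RPKM in normal libraries, under the filter.

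Among the elongases, Elovl6, which extends palmitate, fell to 0.3 RPKM in both AML libraries, against 1.1, 1.5 and 0.7 RPKM in normal libraries (log2 fold change -0.67, SE 0.21, limma, Benjamini-Hochberg adjusted p = 0.049). Like Idi1, Elovl6 was tested because of its normal levels. With no filter, its adjusted p was 0.073 (limma) and the call was lost. Its values carry 1 decimal, and the call was lost in 6 of the 9 alternative fits that tested it (limma adjusted p up to 0.25). Elovl1, which elongates saturated very long chains, was at 56.02 and 54.22 RPKM in AML libraries and at 49.43, 41.65 and 71.81 RPKM in normal libraries, with its normal values on both sides of the AML values. Elovl5, an elongase of polyunsaturated chains, was at 56.48 and 29.11 RPKM in AML libraries and at 28.48, 27.45 and 19.52 RPKM in normal libraries (log2 fold change 0.69, SE 0.34, limma adjusted p = 0.16). Elovl6 made up 0.266% and 0.359% of the summed level of these 3 elongases in AML libraries, against 1.39%, 2.13% and 0.761% in normal libraries.

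The acyl-CoA synthetases, which activate free fatty acids, were led by Acsl1 in every library. Acsl1 was at 115.19 and 106.93 RPKM in AML libraries and at 96.62, 100.47 and 55.59 RPKM in normal libraries, the lowest being normal library 3 (limma, Benjamini-Hochberg adjusted p = 0.32). It made up 66.9% and 72.1% of the summed ACSL level in AML libraries, against 64.4%, 65.1% and 59.5% in normal libraries, and Acsl5 was next in each. Acsl5 was at 49.09 and 33.55 RPKM in AML libraries and at 41.79, 42.05 and 29.36 RPKM in normal libraries, with overlap. Of the less abundant isoforms, Acsl3 passed the test and Acsl4 did not. Acsl3, which acts at lipid droplets (chromosome 1, 78654400 to 78703562, plus strand, mm9, ENSMUSG00000032883), rose to 2.51 and 2.69 RPKM in AML libraries, against 1.26, 1.49 and 1.24 RPKM in normal libraries (log2 fold change 0.63, SE 0.18, limma adjusted p = 0.04). The call was lost in 7 of the 11 alternative fits that tested it (limma adjusted p up to 0.21), and Utp14b overlaps its exons on the same strand. Acsl4, which prefers arachidonic acid, was at 5.5 and 5.2 RPKM in AML libraries and at 10.4, 10.4 and 7.2 RPKM in normal libraries. Its log2 fold change of -0.69 (SE 0.24) missed the threshold (limma adjusted p = 0.072) but passed it under quantile normalization (0.036), upper quartile scaling (0.048) and without normal library 3 (0.017).

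Of 16 tested genes of a further fatty acid list, 5 rose (31.2%, against 19.3% of all tested genes) and by limma 0 fell (against 11.8%), with 8 higher and 1 lower at an unadjusted p under 0.05. Of the genes of acyl-CoA elongation in the list, the dehydratases Hacd1, Hacd2 and Hacd3, listed as Ptpla, Ptplb and Ptplad1, rose (limma adjusted p up to 0.0498, that of Hacd2, which was 0.071 with no filter). The reductases Tecr and Hsd17b12 did not pass (log2 fold changes of 0.67 and -0.30, limma adjusted p = 0.071 and 0.38), and Elovl3, Elovl4 and Elovl7 were under the filter. Hacd1 was at 5.93 and 7.36 RPKM in AML libraries and at 2.26, 2.72 and 1.77 RPKM in normal libraries (log2 fold change 1.24, SE 0.23, limma, Benjamini-Hochberg adjusted p = 0.0087). Dgat1, which makes triglyceride, was at 168.85 and 207.83 RPKM in AML libraries and at 46.94, 52.64 and 112.88 RPKM in normal libraries. Its mean was 2.66-fold higher in AML cells (limma adjusted p = 0.031, and 0.071 with no filter). Lpcat3, which puts polyunsaturated chains into phospholipids, was at 30.96 and 27.12 RPKM in AML libraries and at 14.88, 13.96 and 16.88 RPKM in normal libraries (limma adjusted p = 0.022). Exons of Emg1 overlap those of Lpcat3 on the opposite strand. By limma, 0 rose without AML library 2 (3.33% of all genes), 1 rose without AML library 1 (7.08%), normal library 1 (11.4%) or normal library 2 (9.61%), and 7 rose without normal library 3 (27.3%); 1 fell without normal library 1 (8.01%).

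Of 17 tested genes of fatty acid oxidation, 2 rose and 2 fell, 11.8% each way, against 19.3% and 11.8% of all tested genes. By limma, 4 of the 17 rose once normal library 3 was dropped, a fit in which 27.3% of all genes rose. Dropping normal library 1 left 1 that rose (11.4% of all genes). Dropping normal library 2 left 0 that rose (9.61%) and 1 that fell (6.44%). The median log2 level of the list over the normal mean was 0.36 in AML library 1 and 0.05 in AML library 2. Eci1, listed as Dci and an isomerase for unsaturated chains, was at 0.4 and 0.3 RPKM in AML libraries and at 5.2, 5.8 and 5.4 RPKM in normal libraries (log2 fold change -2.26, SE 0.19, limma, Benjamini-Hochberg adjusted p = 0.00052). Like Idi1, it was tested because of its normal levels; with no filter, the adjusted p was 0.0031. Cpt1a, which commits fatty acids to mitochondrial import, was at 13.3 and 8.4 RPKM in AML libraries and at 28.4, 32.3 and 21.5 RPKM in normal libraries (log2 fold change -1.27, SE 0.29, limma adjusted p = 0.017). Etfb, a subunit of the electron transfer flavoprotein, rose to 104.91 and 139.39 RPKM in AML libraries, against 25.82, 31.83 and 57.96 RPKM in normal libraries (limma adjusted p = 0.015). Acads, the short-chain dehydrogenase, rose to 13.05 and 8.17 RPKM in AML libraries, against 4.53, 5.09 and 5.44 RPKM in normal libraries. The adjusted p of Acads was 0.036, and 0.064 with no filter (limma). Neither the call of Etfb nor that of Acads held when AML library 1 or AML library 2 was left out. Fewer genes of the list fell without AML library 2.

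The AML libraries differed from each other for several genes of the 3 groups. Scd2, Srebf2, Stard4, Hsd17b7 and Idi1 were each higher in AML library 1 than in AML library 2, and Tm7sf2 was lower. Medians of log2 level over the normal mean were 0.17 and -0.11 in AML libraries 1 and 2 for sterol synthesis, -0.08 and -0.57 for sterol regulation and 0.44 and 0.15 for fatty acid genes. The same medians in normal libraries 1 to 3 were -0.14, -0.06 and 0.22 for sterol synthesis, 0.21, 0.03 and -0.14 for sterol regulation, and 0.18, 0.12 and -0.30 for fatty acid genes. For sterol synthesis, both AML medians were within the range of the normal libraries. S100a8 and S100a9 together made up 20.82% of summed RPKM in AML library 1 and 30.1% in AML library 2. In normal libraries 1 to 3 they made up 28.15%, 32.75% and 36.96%. The part of these shares in the differences between libraries was not tested.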

How the data were processed

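Total RNA of sorted cells was sequenced from TruSeq RNA libraries, per the labels' protocols. The deposited values were read as RPKM computed by the authors; no label or header gives the unit, but they are not whole, and multiplied by exon length they sum to between 1059377 and 1124787 per library. Per the submitters' processing notes, reads were placed on mm9; the aligner, counter and annotation were not given in the sources used here. A gene was kept if 2 or more of the 5 libraries had 1 RPKM or more (10166 genes). AML and normal cells were compared on log2(RPKM + 1), a scale that understates changes of low genes, with limma 3.58.1 in R 4.3.3 (variance trend, robust, two-sided), adjusted by Benjamini-Hochberg over all tested genes at 0.05. Means, SDs and folds are of RPKM. The fit was also run on simulated data with noise drawn independently for each gene and library, which the real libraries need not follow.

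Values carry 1 or 2 decimals by gene: among tested genes, log2 fold changes were above 0 for 11.9% of 4749 with 1 decimal and 94.5% of 5417 with 2. Of the 36 tested members, 18 have 1 decimal, including all 4 that fell; the 5 that rose have 2.

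Members and lists were chosen with earlier results of these data known. By rule, values in every library were given for called members and for 11 nodes of the pathways, and from each further list for up to 3 called genes a direction; other genes are named for their place in the pathway, chosen after their values were seen. Some further sterol genes are not reported here, and counts over that list are without them. Coordinates are from GENCODE M1 (mm9). Besides the overlaps given above, exons of Lss, Acaca, Elovl1, Ggps1, Npc1 and Mbtps2 overlap those of other genes. Promoters are from RefSeq (GRCm38.p6). Alternatives were other scalings, filters, a pseudocount of 0.1, no variance trend, rounding to 1 decimal, and leaving out each library.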

Additional observations from a re-analysis of the deposited data

How the results depend on the processing

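No paired analysis was possible because the labels of the 2 groups share no numbering of animals or batches. Leaving out 1 library at a time gave 326 to 2757 genes higher and 348 to 2142 lower in AML cells over all tested genes, with the highest numbers without normal library 3 and the lowest without AML library 2. Over the same fits, 0 to 2 sterol synthesis genes were higher and 0 to 2 lower, 0 to 2 sterol regulators higher and 1 to 2 lower, and 0 to 4 fatty acid genes higher and 0 to 3 lower (limma); where an AML library is left out, the remaining one is assumed to vary like the normal libraries. The number of lower sterol synthesis genes was 1 with no filter and 1 with a filter at 5 RPKM, where 1 fatty acid gene was higher. The number of lower fatty acid genes was 2 under upper quartile scaling and 0 with no filter, with a filter at 5 RPKM, without a variance trend and with values rounded to 1 decimal, since Elovl6 was then under the filter or above the threshold. The sign turned only for genes near 0: Ebp (-0.088 under quantile normalization, -0.094 under upper quartile scaling, -0.11 to 0.14 over fits without 1 library), Elovl1 (-0.043 and -0.042 under these scalings, -0.11 to 0.27 without 1 library), Sc5d (-0.50 to 0.21), Dhcr7 (-0.053 to 0.30) and Acsl5 (-0.15 to 0.39). The cause of these shifts was not tested. Soat1 alone among the 9 called genes passed in every fit. With no read counts, the precision of values under about 1 RPKM is limited by their 1 or 2 decimals.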
